A study of Mus musculus with 16 samples.

Results

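The molecules described here are adhesion proteins of the neuronal surface: Chl1, L1cam and Nrcam of the L1 family, the neural cell adhesion molecule Ncam1, the contactins Cntn1 and Cntn2, and Cd24a. A probe set, the group of short oligonucleotides that an array of this type uses to report a transcript, was taken as a member when the platform annotation gave it exactly 1 gene symbol and that symbol was one of these 7. This gave 9 of the 12488 probe sets in the table, for 6 of the 7 genes: 3 for Ncam1 (100153_at, 161750_f_at and 100152_at), 2 for Chl1 (103088_at and 161239_r_at) and 1 each for L1cam (99800_at), Nrcam (92293_at), Cntn1 (92936_at) and Cd24a (100600_at). No probe set had Cntn2 as its only symbol, so Cntn2 was not analysed here.

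Retina from adult C57/B6 mice (a pool of 350 animals) was set against cerebral cortex of postnatal day 1 mice (a pool of 19 animals) on 1-colour oligonucleotide arrays, with 5 arrays per tissue at the first site and 3 per tissue at a second site, called site 2. Both tissues were extracted with TRIzol, and the labels give no treatment or engineered allele for either. For the cortex donors, the sample descriptions name C57/B6 and the design text names Swiss-Webster, so organ, age and possibly strain differ between the tissues and cannot be told apart. The sizes of the pools are given for the first site only, and the site 2 descriptions call their arrays technical replicates without naming a pool. The arrays of a tissue are thus repeats of pooled RNA at the first site and technical repeats at site 2: the p-values below measure the spread between arrays, which is technical, and say nothing about the spread between animals.

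In the L1 family, immunoglobulin and fibronectin type III domains on the cell surface are joined by a single membrane span to a short tail that binds ankyrin and so the spectrin cytoskeleton. These proteins bind themselves, one another, Ncam1, contactins, integrins and extracellular matrix, and in the developing nervous system they act in neurite outgrowth, axon bundling, guidance and neuronal migration. Contactins have the same kinds of domain but are held in the membrane by a glycolipid anchor. Cd24a is a short, heavily glycosylated protein with such an anchor and no immunoglobulin domain, and is grouped here because it binds L1 in mouse. In the retina, L1 and Ncam1 are known on ganglion cell axons, and Ncam1 also on other neurons and on Mueller glia.

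RefSeq windows of 250 bases before a listed start of transcription (table of assembly GRCm38.p6) are shown for 4 members, since the members below moved together with differences of unlike size. Of the 7 genes 5 were matched, with 8 windows, and Ncam1 and Cd24a were not. The windows lie on 4 different chromosomes: Chl1 at chr6:103510626-103510875 on the plus strand, L1cam at chrX:73880835-73881084 on the minus strand (the farther upstream of 2 listed starts), Nrcam at chr12:44328635-44328884 on the plus strand and Cntn1 at chr15:92050915-92051164 on the plus strand (the first of 3 listed starts). Each is printed 5′ to 3′ and ends at the base before the start. Capitals mark every match, on either strand, to the GC box GGGCGG, the CCAAT box, the TATA box TATAAA, the E-box CANNTG and ACAAAG, a motif that Sox factors can bind.
Chl1: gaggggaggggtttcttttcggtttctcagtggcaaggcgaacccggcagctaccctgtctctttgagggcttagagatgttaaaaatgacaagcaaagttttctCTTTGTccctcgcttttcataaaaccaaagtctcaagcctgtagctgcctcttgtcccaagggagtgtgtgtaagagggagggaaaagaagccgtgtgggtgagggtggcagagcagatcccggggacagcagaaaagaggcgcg
L1cam: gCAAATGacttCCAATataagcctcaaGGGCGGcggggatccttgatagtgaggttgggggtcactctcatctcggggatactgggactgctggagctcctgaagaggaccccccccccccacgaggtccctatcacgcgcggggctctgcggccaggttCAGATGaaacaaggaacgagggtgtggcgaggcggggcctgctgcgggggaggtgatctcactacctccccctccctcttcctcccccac
Nrcam: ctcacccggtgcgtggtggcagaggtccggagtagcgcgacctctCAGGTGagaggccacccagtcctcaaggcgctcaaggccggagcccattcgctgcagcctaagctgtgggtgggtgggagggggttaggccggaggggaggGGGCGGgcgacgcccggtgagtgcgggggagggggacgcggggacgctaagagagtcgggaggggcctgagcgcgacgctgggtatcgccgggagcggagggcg
Cntn1: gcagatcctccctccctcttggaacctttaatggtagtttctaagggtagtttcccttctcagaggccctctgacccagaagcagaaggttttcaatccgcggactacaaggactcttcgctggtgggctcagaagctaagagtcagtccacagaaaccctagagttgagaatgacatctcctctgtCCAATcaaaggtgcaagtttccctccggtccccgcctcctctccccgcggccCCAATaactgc
The Chl1 window held the Sox-type motif once, on the opposite strand 145 bases before the start, and none of the other motifs. The L1cam window held a GC box, a CCAAT box and 2 E-boxes, the Nrcam window a GC box and an E-box, and the Cntn1 window 2 CCAAT boxes. No match overlapped a match to another motif. Among all 32851 windows of this length, 32.7% held a GC box, 33.8% a CCAAT box, 12.4% a TATA box, 66.2% an E-box and 16.5% the Sox-type motif. The Nrcam window was the richest in G and C of these windows at 72.4%, followed by L1cam at 63.2%, Cntn1 at 53.6% and Chl1 at 52.4%, against a median of 52.4% over all windows. Nrcam had 25 CpG dinucleotides, L1cam 12, Chl1 8 and Cntn1 7, against a median of 6. A match says only that these letters are present.

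All 6 genes were lower in adult retina than in newborn cortex at the first site, and 5 of them passed the test at site 2, L1cam being the exception. At the first site the measured differences ran from -0.82 log2 units for Nrcam to -4.58 for Cd24a, and Chl1, at background in retina, was at least 38.1-fold lower. By probe set, 7 of 9 were lower in retina at the first site and 0 were higher, where 25.2% of all 12422 tested probe sets were lower and 47.1% passed in either direction (limma, adjusted p under 0.05). At site 2, 6 of 9 were lower and 0 higher, against 15.9% lower and 32.5% in either direction among all. The count lower at both sites was also 6 of 9, against 14.1% of all. Without site 2 cortex replicate 2, a dim array described with L1cam below, 7 of 9 were lower at site 2, against 21.3% of all, and 1 was higher, a Ncam1 probe set at background. In retina, every array lay below every cortex array for 7 of 9 probe sets at the first site, against 20.9% of all, and for 6 of 9 at site 2, against 24.4%. The median retina minus cortex difference over the 9 probe sets was -1.16 log2 units at the first site and -1.14 at site 2, beside -0.06 and -0.02 over all probe sets tested.

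Levels below are scaled intensities, in which the median of each array is 100. Differences are retina minus cortex on log2(intensity + 16) after centring each array on its median, a scale that understates changes in dim signals. Probe sets differ in brightness for the same amount of RNA, so a level is compared only within a probe set. In bulk RNA, fewer cells of a type and less RNA per cell cannot be told apart. Background is the highest of 13 control probe sets with no target in mouse RNA, taken on each array.

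**Figure D1:**
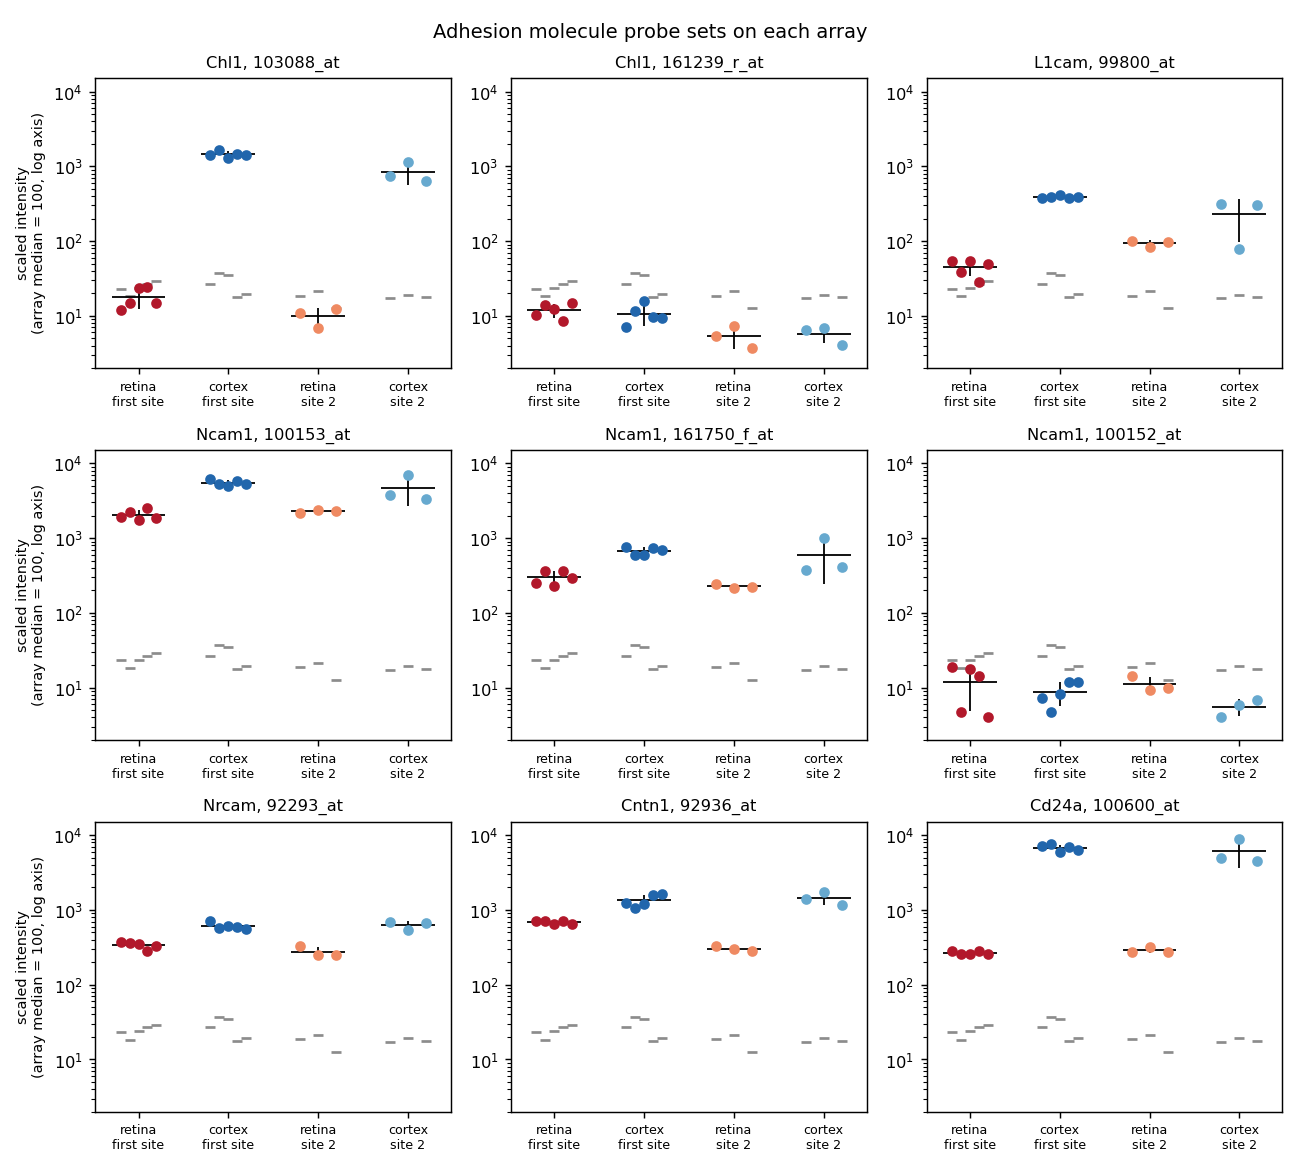
Scaled intensity (array median 100, log axis) of the 9 member probe sets on each of the 16 arrays, retina left of cortex at each site. Points are arrays, lines are means, bars are SD, and grey dashes give the background of each array. Chl1 103088_at lay at background in all 8 retina arrays, 161239_r_at of Chl1 and 100152_at of Ncam1 in all 16 arrays, and the other 6 probe sets lay above it.

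Chl1, the close homologue of L1, is a neuronal L1-family protein known for its part in migration and in the positioning of cortical neurons. Its probe set 103088_at read 11.9, 14.7, 23.4, 24.1 and 14.8 in the first-site retina arrays, against 1432, 1655, 1291, 1467 and 1415 in the cortex arrays. At site 2 it read 11, 6.91 and 12.2 in retina, against 737, 1154 and 640 in cortex. All 8 retina arrays were at or under background, so only a bound can be given: Chl1 was at least 38.1-fold lower in retina at the first site and at least 25.4-fold lower at site 2. With the second highest control as background, some retina arrays lay above it and no bound was formed.

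In the fit, the Chl1 difference was -5.53 ± 0.13 log2 units at the first site (SE, 5 arrays per tissue, limma adjusted p = 4.77e-15) and -5.05 ± 0.19 at site 2 (3 arrays per tissue, adjusted p = 5.93e-08). These fitted values are no measure of size, since the retina side is background and they move with the pseudocount and scaling (-6.33 to -4.58 over the alternatives at the first site). The other Chl1 probe set, 161239_r_at, was at or under background on all 16 arrays. It read 10.3, 14, 12.2, 8.45 and 14.9 in first-site retina, against 7.04, 11.6, 15.7, 9.52 and 9.44 in cortex, and these overlapped. Its suffix marks a probe set for which the maker relaxed its rules of probe choice, and it gave no measure of Chl1 in either tissue.

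L1cam, the founding L1-family protein of growing axons, read 54.8, 38.9, 54.7, 28.5 and 49.7 in the first-site retina arrays, against 376, 392, 409, 382 and 394 in the cortex arrays. The groups did not overlap, every array was above background, and the difference was -2.78 ± 0.12 log2 units (SE, 5 arrays per tissue, limma adjusted p = 1.48e-11). At site 2 L1cam read 102, 82.5 and 96.1 in retina, against 315, 77.9 and 305 in cortex. Here the groups overlapped through 1 cortex array, replicate 2, which was as low as the retina arrays.

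The L1cam difference at site 2 was -1.03 ± 0.41 log2 units and missed the threshold (limma adjusted p = 0.0844), with a 95% confidence interval of -1.95 to -0.117. Without cortex replicate 2 it was -1.63 ± 0.13 (adjusted p = 3.05e-06). That array was the dimmest of the 16, with a median deposited intensity of 45.7, where the arrays as a whole spanned 45.7 to 216, and its mean correlation with its group was 0.943. The other arrays correlated at 0.965 to 0.991 with their groups on average. What sets that array apart was not tested.

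Nrcam, an L1-family protein of axon initial segments and nodes of Ranvier, had the smallest fitted difference of the 6 genes at the first site. It read 376, 358, 347, 279 and 325 in first-site retina, against 707, 574, 603, 601 and 559 in cortex. At site 2 the values were 331, 249 and 247 in retina, against 689, 540 and 675 in cortex. Neither site had an overlap: retina means were 337 ± 37.2 and 276 ± 47.9, against 609 ± 58.2 and 635 ± 82.2 in cortex (SD, n = 5 each at the first site and 3 each at site 2). The differences were -0.82 ± 0.09 log2 units at the first site (limma adjusted p = 1.19e-06) and -1.14 ± 0.20 at site 2 (adjusted p = 0.00142). The site 2 call was lost, at -1.06 and an adjusted p of 0.0506, when arrays were centred on 6097 probe sets that passed at neither site.

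Ncam1 binds itself between cells, and in newborn brain much of it carries polysialic acid, which weakens that binding. Its brightest probe set, 100153_at, read 1894, 2240, 1728, 2508 and 1861 in first-site retina, against 6106, 5340, 4951, 5799 and 5308 in cortex. At site 2 it read 2138, 2394 and 2340 in retina, against 3725, 7021 and 3326 in cortex. The groups were apart at both sites, with most of the site 2 spread in cortex, where the high value belongs to replicate 2. Differences were -1.42 ± 0.10 log2 units at the first site (limma adjusted p = 3.22e-09) and -0.92 ± 0.20 at site 2 (adjusted p = 0.00576).

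A second Ncam1 probe set, 161750_f_at, whose suffix marks probes shared within a family of sequences, read 253, 361, 226, 364 and 289 in first-site retina, against 751, 602, 598, 747 and 698 in cortex. At site 2 it read 246, 214 and 223 in retina, against 370, 991 and 407 in cortex. It was lower in retina by a similar amount at each site, at -1.16 ± 0.12 log2 units (limma adjusted p = 5.82e-07) and -1.14 ± 0.27 (adjusted p = 0.0077). The third, 100152_at, was at or under background on all 16 arrays and its first-site groups overlapped, with 4.07 to 18.8 in retina and 4.75 to 12 in cortex. At site 2 it read 14.2, 9.21 and 9.76 in retina, against 4.03, 5.91 and 6.81 in cortex, with a difference of 0.34 log2 units and a 95% confidence interval of -0.587 to 1.26 (adjusted p = 0.66). That difference passed the test without cortex replicate 2 (0.73, adjusted p = 0.0112), with every array still under background.

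Probe sets of the same gene were set against each other by giving each array the difference between 2 of them and testing retina against cortex. This made 4 pairs per site, tested with two-sided exact permutation tests whose smallest possible p is 0.00794 at the first site and 0.1 at site 2. At the first site all 4 pairs gave an exact permutation p of 0.00794, the same after Benjamini-Hochberg adjustment. The 2 measurable Ncam1 probe sets differed least, with 100153_at lower in retina by 0.26 log2 units more than 161750_f_at, and the Chl1 probe sets most, at -5.57. At site 2 the 2 measurable Ncam1 probe sets differed by 0.22 log2 units the other way (exact permutation p = 0.2, adjusted p = 0.2). Both unmeasurable probe sets stood at background, so their gaps to the bright ones mostly repeat the tissue difference of the bright ones. These pairs cannot tell whether 2 transcripts moved apart.

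Cntn1, or contactin 1, is a glycolipid-anchored partner of Ncam1, L1-family proteins and, at myelinated axons, Caspr. Cntn1 read 711, 704, 644, 714 and 643 in first-site retina, against 1229, 1074, 1218, 1569 and 1619 in cortex. At site 2 it read 327, 299 and 279 in retina, against 1420, 1750 and 1172 in cortex. No array of one tissue reached the other tissue at either site. The difference was -0.93 ± 0.11 log2 units at the first site (limma adjusted p = 1.6e-06) and -2.16 ± 0.15 at site 2 (adjusted p = 2.73e-06).

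Cd24a, the short glycolipid-anchored partner of L1, differed by more than 4 log2 units at both sites. It read 282, 258, 258, 286 and 261 in first-site retina, against 7281, 7528, 6028, 6876 and 6319 in cortex. Site 2 gave 275, 317 and 278 in retina, against 4945, 9026 and 4476 in cortex. Retina stayed above background throughout, so the difference was measured on both sides: -4.58 ± 0.07 log2 units at the first site (limma adjusted p = 4.16e-17) and -4.24 ± 0.19 at site 2 (adjusted p = 1.88e-07). From the lowest fitted difference upwards it stood at place 14 of 12422 at the first site and 16 at site 2.

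In mouse, Cd24a is also made by erythroid cells and by developing B cells, so markers of these cells were read beside it. Of 6 erythroid markers on the array 3 were lower in retina at the first site, and their summed level was 799 to 929 in retina, against 3352 to 3737 in cortex. Hba-a1, an alpha globin, averaged 583 ± 32.9 in first-site retina and 2528 ± 169 in first-site cortex (SD, n = 5 per tissue). Of 9 leukocyte and B cell markers 2 were lower, with a summed level of 411 to 544 in retina, against 525 to 587 in cortex, and Ptprc, the pan-leukocyte marker CD45, was low in both tissues, at 5.19 ± 3.25 in retina and 5.88 ± 5.54 in cortex (SD, 5 arrays per tissue). The part of these cells in the Cd24a difference was not tested.

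**Figure D2:**
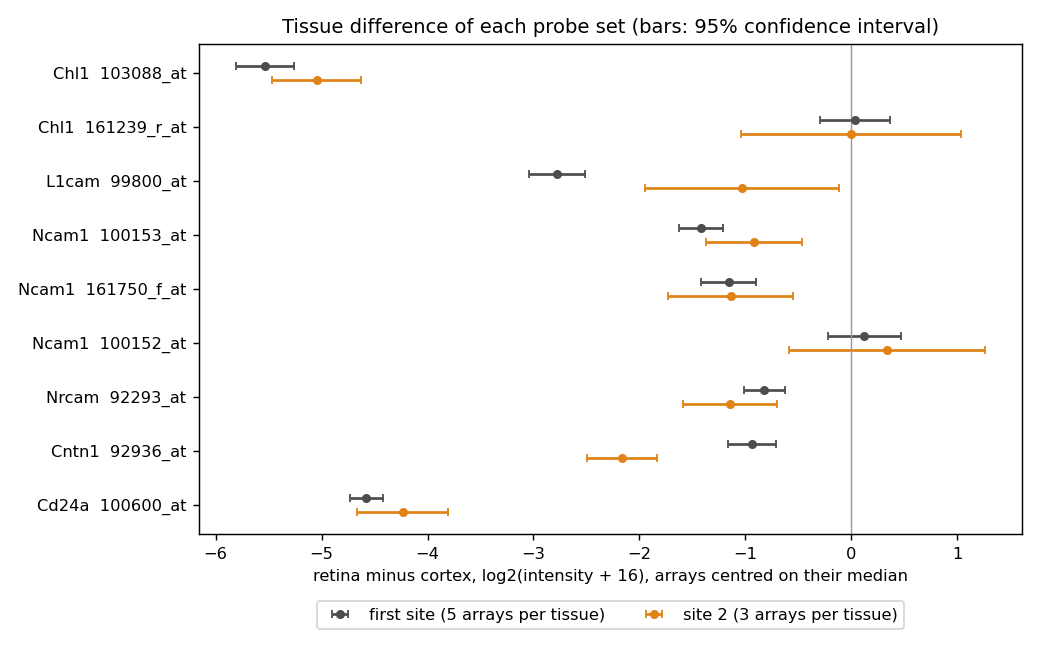
Retina minus cortex difference (log2 units, horizontal axis) of each member probe set at the first site and at site 2, with 95% confidence intervals. Chl1 103088_at, whose retina signal is background, and Cd24a lie farthest below 0, the 2 probe sets at background lie at 0 within their intervals, and L1cam and Cntn1 differ most between sites.

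In the order of the 4 group means, both cortex groups lay above both retina groups for each of the 7 probe sets that were above background in cortex. For Ncam1 (100153_at and 161750_f_at), Nrcam and Cd24a the arrays of the 2 sites overlapped within each tissue. Chl1 was higher in first-site cortex than in site 2 cortex with no overlap, and its retina groups overlapped at background. L1cam ran from first-site cortex, through site 2 cortex and site 2 retina, which overlapped, to first-site retina. Cntn1 had overlapping cortex groups and separate retina groups, the first site above site 2.

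The size of the tissue difference was compared between sites in a fit of all 16 arrays, as the first-site difference minus the site 2 difference. It passed the test for 2 of 9 member probe sets, L1cam and Cntn1, in opposite directions, where 3.36% of all probe sets passed, 1.3% (161) positive and 2.07% (257) negative. Other scalings shifted that split between directions: it was 21 and 13 without centring, 230 and 215 after quantile normalization, and 74 and 55 with centring on probe sets that passed at neither site. For L1cam the retina deficit was larger at the first site by 1.75 log2 units (difference -1.75 ± 0.39, limma adjusted p = 0.0168, 8 arrays per tissue). Without site 2 cortex replicate 2 it was -1.15 ± 0.20 (adjusted p = 0.00188), and without site 2 retina replicate 3 it was -1.73 (adjusted p = 0.0507).

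L1cam moved between sites in both tissues, down in first-site retina and up in first-site cortex. First-site retina averaged 45.3 ± 11.4, against 93.4 ± 9.85 at site 2, a difference of -0.87 ± 0.28 log2 units (limma adjusted p = 0.0194), in a comparison where 35.7% of all probe sets passed, 12.5% higher and 23.2% lower at the first site. That call was lost without site 2 retina replicate 1 (adjusted p = 0.0675) or replicate 3 (adjusted p = 0.062). First-site cortex averaged 391 ± 12.8, against 233 ± 134 at site 2, a difference of 0.88 ± 0.28 (adjusted p = 0.036), where 16.7% of all probe sets passed, 6.4% higher at the first site. Without site 2 cortex replicate 2 it was 0.27 (adjusted p = 0.155), in a comparison where 40.1% of all probe sets then passed, 2800 higher and 2176 lower, against 795 and 1281 with that array, and leaving out any 1 of the 5 first-site cortex arrays also ended the call (adjusted p = 0.0551 to 0.0675).

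For Cntn1 the retina deficit was smaller at the first site, with a difference between sites of 1.23 ± 0.18 log2 units (limma adjusted p = 0.000455), and 1.17 ± 0.18 without site 2 cortex replicate 2 (adjusted p = 0.000613). The gap lay in retina: first-site retina averaged 683 ± 36.5, against 302 ± 24.3 at site 2, a difference of 1.15 ± 0.13 (adjusted p = 1.94e-06). Cortex averaged 1342 ± 239 at the first site and 1447 ± 290 at site 2, a difference of -0.08 ± 0.13 (adjusted p = 0.756).

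Chl1 was the other member called between sites in cortex, where first-site arrays averaged 1452 ± 131, against 844 ± 273 at site 2 (0.84 ± 0.16 log2 units, limma adjusted p = 0.0014). Its tissue difference did not pass the test between sites (-0.49, adjusted p = 0.268). For Ncam1 100153_at and Cd24a the between-site test was not passed with all arrays (-0.51, adjusted p = 0.209, and -0.34, adjusted p = 0.341). Without site 2 cortex replicate 2 both passed, at -0.74 ± 0.16 (adjusted p = 0.0102) and -0.55 ± 0.12 (adjusted p = 0.0114). In that fit 5.4% of all probe sets passed, 3.66% negative, and Ncam1 161750_f_at did not pass (-0.37 ± 0.20, adjusted p = 0.273). With all arrays, Nrcam and Ncam1 161750_f_at gave 0.32 (adjusted p = 0.453) and -0.02 (adjusted p = 0.991).

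**Figure D3:**
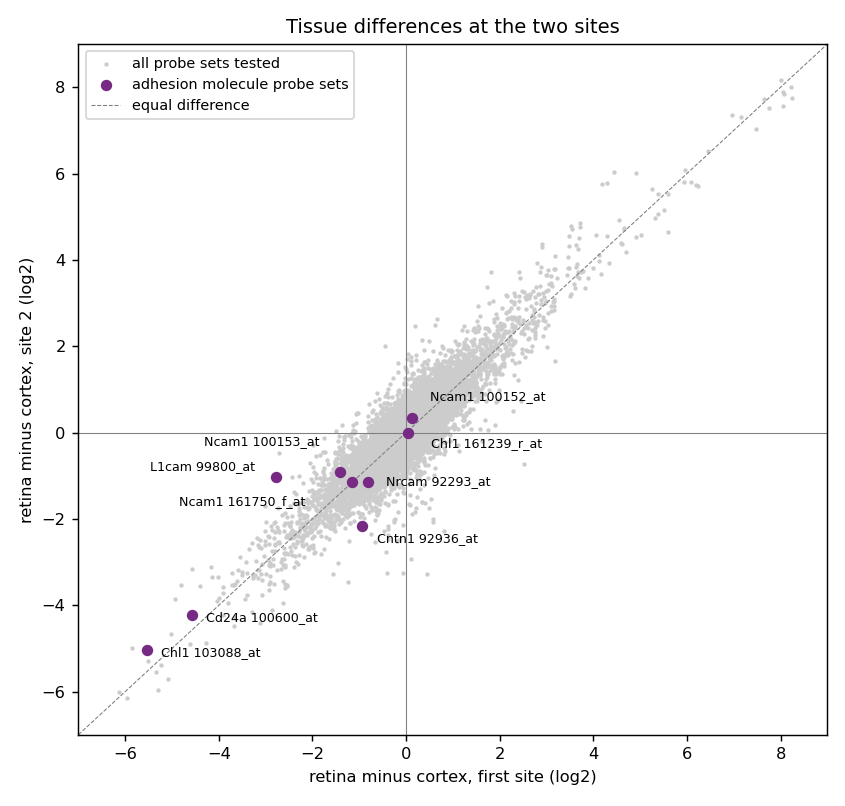
First-site difference (horizontal axis) against site 2 difference (vertical axis), both retina minus cortex in log2 units, for all 12422 tested probe sets, with the 9 members marked. Of the members that passed the between-site test, L1cam lies above the diagonal (-2.78 across, -1.03 up) and Cntn1 below it (-0.93 across, -2.16 up).

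For each gene the 2 other genes with the most similar profile over the 16 arrays were found, by the root mean square difference in log2 units after removing the mean of each probe set, among 10824 probe sets. Dcx, a microtubule-binding protein of migrating neurons, at 0.267, and Sox11, a transcription factor of newborn neurons, at 0.283, were closest to Chl1. That Sox11 probe set was at or under background in every retina array and at least 30.4-fold lower in first-site retina, whereas another Sox11 probe set was above background there, at 125 ± 24.8 in retina and 5441 ± 336 in cortex (SD, 5 arrays per tissue). L1cam was closest to Trim46, a microtubule organiser of the axon initial segment, at 0.339, and to Dpysl3, a growth cone protein, at 0.352. These were the least close of the nearest pairs.

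Ncam1 had the closest neighbours, the tubulin gene Tubb2a at 0.12 and Tmsb10, an actin-binding thymosin, at 0.135. Nrcam was closest to Cacng2, an auxiliary subunit of AMPA receptors, at 0.185 and to the exocyst subunit Exoc4 at 0.196. Cntn1 was closest to St8sia3, a sialyltransferase, at 0.22 and to the RNA helicase gene Ddx50 at 0.258. Ddx50 was at or under background in every site 2 retina array and at least 4.56-fold lower in retina there. Cd24a was closest to Tbr1, a transcription factor of cortical projection neurons, at 0.268 and Dlx2, a homeobox factor of forebrain interneurons, at 0.299. Dlx2 was at or under background in every retina array and at least 15.2-fold lower in first-site retina, whereas Cd24a was above background there. With 16 arrays of 2 tissues, such a profile is mostly the tissue difference, and the measure is a description.

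Other genes of these adhesion systems were read from the probe set with the highest mean of each gene. Of 24 other immunoglobulin-type adhesion molecules on the array (43 listed), 9 were lower in retina and 6 higher at the first site, and 7 lower and 7 higher at site 2. Their median difference was -0.10 log2 units at the first site and -0.11 at site 2, close to all probe sets (-0.06 and -0.02). Cd200, a ligand that restrains myeloid cells, averaged 240 ± 17.7 in retina and 1154 ± 152 in cortex, and Alcam, an axon adhesion molecule, 79.9 ± 9.60 in retina and 383 ± 39.2 in cortex (SD, 5 arrays per tissue). These were differences of -2.18 ± 0.09 and -2.07 ± 0.10 at the first site (limma adjusted p = 8.7e-12 and 4.66e-11), and -2.41 ± 0.21 and -2.70 ± 0.18 at site 2 (adjusted p = 1.25e-05 and 1.87e-06).

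Other members of that list were higher in retina. Thy1, a glycolipid-anchored protein and ganglion cell marker, averaged 1503 ± 160 in retina and 433 ± 50.1 in cortex (SD, 5 arrays per tissue), with a difference of 1.77 ± 0.09 log2 units (limma adjusted p = 1.02e-10) and 1.73 ± 0.14 at site 2 (adjusted p = 9.79e-06). Emb, or embigin, a partner of monocarboxylate transporters, averaged 286 ± 7.13 in retina and 55.5 ± 12.3 in cortex, with 2.12 ± 0.12 (adjusted p = 3.01e-10) and 1.77 ± 0.18 (adjusted p = 4.25e-05), while its dim second probe set gave 0.04 (adjusted p = 0.872) at the first site.

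Ligands, cis partners and sheddases of the members were lower in retina more often than higher: of 32 on the array (37 listed), 20 were lower and 3 higher at the first site, and 16 lower and 3 higher at site 2. The median was -0.69 log2 units at the first site and -0.72 at site 2. Bcan and Ncan encode the proteoglycans brevican and neurocan, of which neurocan binds Ncam1 and L1, and Tnc encodes tenascin-C, a matrix ligand of Cntn1. Bcan averaged 17.3 ± 3.23 in first-site retina and 435 ± 82.9 in cortex (limma adjusted p = 4.38e-13), but only 1 of the 5 retina arrays was above background, so its fitted difference of -3.81 rests mostly on background. The dimmer second Bcan probe set gave -1.225 at the first site (adjusted p = 0.000196) and -0.973 at site 2 (adjusted p = 0.0157). Ncan and Tnc gave -2.35 ± 0.08 (adjusted p = 4.59e-13) and -2.51 ± 0.10 (adjusted p = 5.66e-12).

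Nrp1, the semaphorin receptor subunit that pairs with L1cam in the same membrane, averaged 132 ± 17.1 in first-site retina and 831 ± 39.4 in cortex (-2.53 ± 0.08 log2 units, limma adjusted p = 3.78e-13), and was the gene of this list whose difference passed the test between sites (1.00 ± 0.25, adjusted p = 0.03). Against the majority, the integrin subunit gene Itgav averaged 1760 ± 160 in retina and 737 ± 46.0 in cortex (1.25 ± 0.08, adjusted p = 1.19e-09). Its other 2 probe sets did not pass at the first site (0.11 and 0.45). Ptprz1, the receptor phosphatase that binds Cntn1, was named after its values were seen: its 3 probe sets gave -2.18, -6.14 and -3.04 at the first site and -1.61, -6.00 and -2.86 at site 2.

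Of 22 cytoplasmic linkers and kinases on the array (31 listed), 8 were lower in retina and 5 higher at the first site, and 6 lower and 2 higher at site 2; without site 2 cortex replicate 2 the site 2 count was 7 lower and 5 higher. The median was -0.12 log2 units at the first site and -0.07 at site 2. Dcx averaged 71.8 ± 8.10 in first-site retina and 3897 ± 240 in cortex (-5.50 ± 0.08, limma adjusted p = 1.53e-17). Gap43, a growth cone protein, gave -3.42 ± 0.10 (adjusted p = 1.2e-13), and Fyn, a Src-family kinase that signals from Ncam1 and contactins, -2.52 ± 0.09 (adjusted p = 1.25e-12). Dlg1, a scaffold protein, was higher in retina, with 981 ± 105 in retina and 380 ± 23.6 in cortex (1.34 ± 0.08, adjusted p = 7.78e-10).

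Genes that build polysialic acid and related sugars went both ways. Of 10 on the array (13 listed), 7 were lower and 3 higher in retina at the first site, and 4 lower and 3 higher at site 2 (6 lower and 3 higher without cortex replicate 2), with medians of -0.67 and -0.44 log2 units. St8sia4 and St8sia2, the 2 polysialyltransferases of Ncam1, were both lower: St8sia4 averaged 43.9 ± 6.97 in first-site retina and 932 ± 169 in cortex (-4.00 ± 0.13, limma adjusted p = 2.26e-13), and St8sia2 averaged 247 ± 32.9 in retina and 1023 ± 76.9 in cortex (-1.99 ± 0.08, adjusted p = 7.17e-12). Fut9, a fucosyltransferase that makes the Lewis x sugar, gave -2.59 ± 0.14 (adjusted p = 1.56e-10), with 4 of 5 retina arrays above background, and was at least 7.38-fold lower in retina at site 2, where it was at background. The between-site test was passed by St8sia2 (0.69 ± 0.18, adjusted p = 0.0362) and by St8sia3 (0.69 ± 0.15, adjusted p = 0.0114). St8sia1, which makes the ganglioside GD3, was higher, with 117 ± 9.65 in retina and 28.4 ± 5.40 in cortex, where 3 of 5 arrays were above background (1.62 ± 0.13, adjusted p = 2.41e-08).

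**Figure D4:**
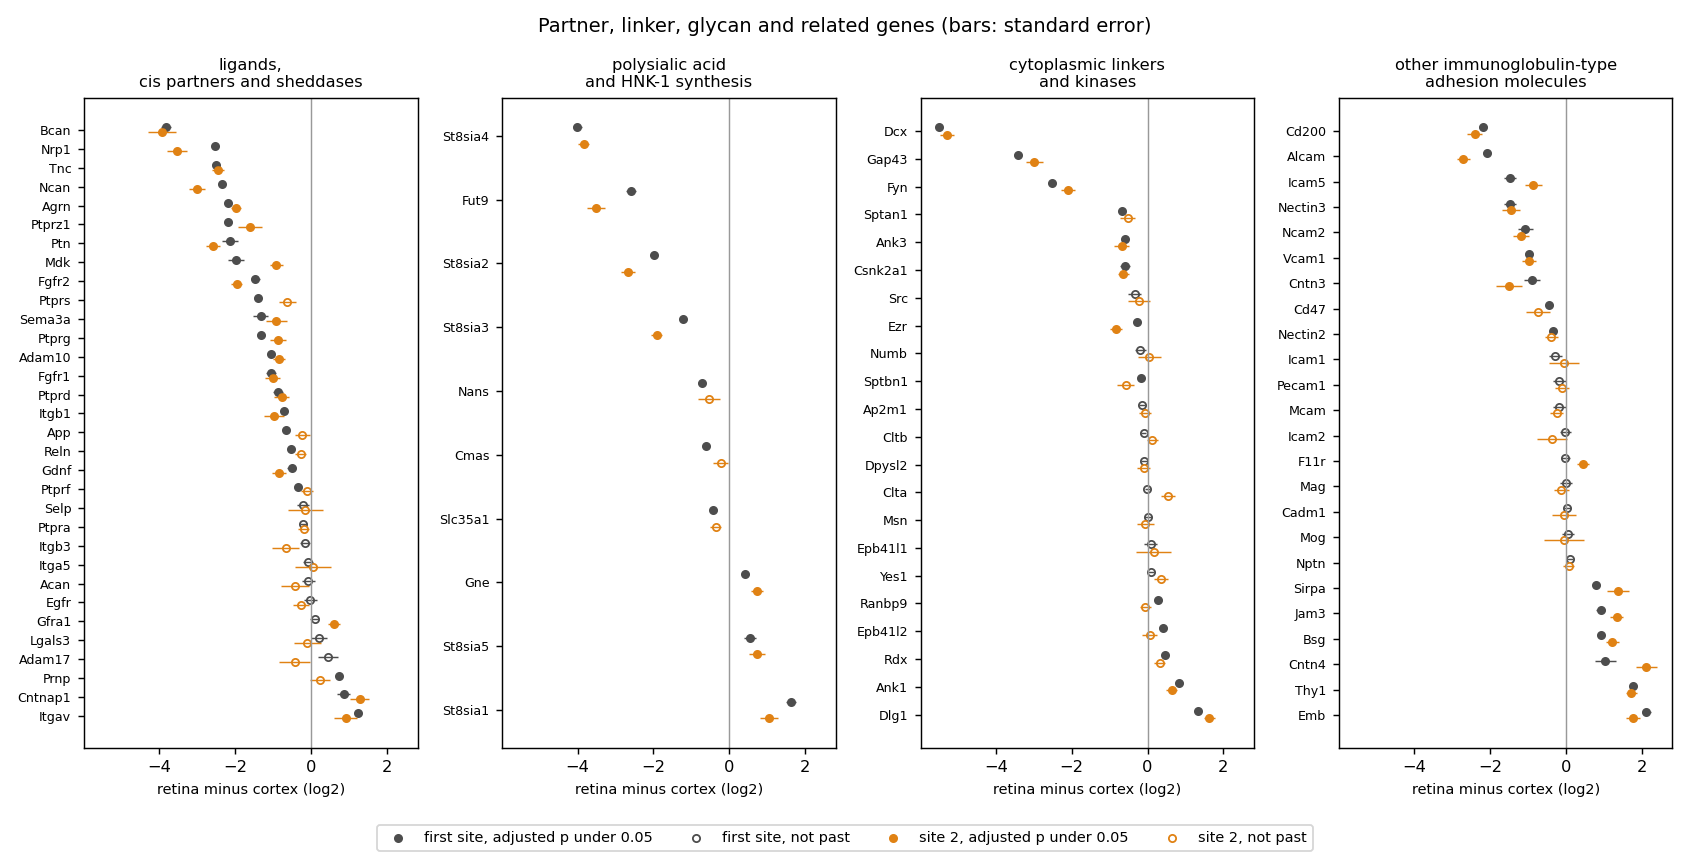
Retina minus cortex difference (log2 units, horizontal axis, bars SE) at the first site and at site 2 of each gene on the array in the 4 lists, from the probe set with the highest mean. Filled points passed the limma test at an adjusted p under 0.05. At the first site 20 of 32 ligands, partners and sheddases were lower in retina and 3 higher, beside 9 lower and 6 higher of 24 other adhesion molecules.

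The labelled tissues were checked against their markers. At both sites all 8 rod photoreceptor markers on the array were higher in retina, and their summed level was 44181 to 51932 in first-site retina, against 84.9 to 128 in cortex. Ganglion cell markers were higher in retina for 7 of 8 and lower for 1 at the first site, as were Mueller glia and astrocyte markers. Amacrine and horizontal cell markers were higher for 7 of 9. At site 2 the counts higher were 6, 5 and 7. The ganglion cell sum was still lower in first-site retina, at 4937.9 to 5590.2, against 7634.2 to 9868.5 in cortex, where Stmn2 averaged 7628. All 7 markers of newborn cortical neurons were lower in retina, also at both sites, and summed to 694 to 934 in first-site retina, against 15144 to 17031 in cortex, and Dcx belongs to them. Meningeal and mural markers, which cortex dissections can carry, were lower in retina for 8 of 10, with 2439 to 2842 in retina, against 5044 to 5604 in cortex. Radial glia and progenitor markers were lower for 5 of 10, higher for 1 and not past the threshold for 4. They summed to 6373 to 6710 in retina, against 8833 to 10674 in cortex. Fabp7, a radial glial lipid-binding protein, gave -5.86 ± 0.08 log2 units (limma adjusted p = 8.64e-18), whereas Prom1 gave 5.02 ± 0.09 (adjusted p = 2.29e-16). The sums were mostly Prom1 in retina, at a mean of 4320, and Fabp7 in cortex, at 5832. Endothelial markers were lower for 6 of 9 and higher for 2. Oligodendrocyte and Schwann cell markers were lower for 1 of 7, higher for 1 and not past the threshold for 5. They summed to 808 to 933 in retina, against 1408 to 1549 in cortex. Lens markers, which retina dissections can carry, were higher in retina for 4 of 7, with 1449 to 1691 in retina, against 511 to 691 in cortex. First-site calls for newborn cortical neuron, meningeal and mural, erythroid, and leukocyte and B cell markers were all in the direction of the members. Those for rod, amacrine and horizontal cell, and lens markers were all against it. Ganglion cell, Mueller glia, radial glia, endothelial, and oligodendrocyte and Schwann cell calls went both ways. The part of these cells in the members' differences was not tested.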

How the data were processed

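Total RNA, about 10 µg per array per the labels, was made into biotin-labelled cRNA and hybridised to 16 arrays. The authors deposited 1 linear intensity per probe set and array, and the algorithm that summarised the probes is not given in the sources used here. Deposited sums per array ran from 2478885 to 8639518 and medians from 45.7 to 216, and 68.5% to 78.8% of probe sets per array exceeded background. The number of arrays limits the precision.

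Intensities were turned into log2(intensity + 16) and centred on the array median. After leaving out 66 control probe sets, linear models were run for 12422 in limma 3.58.1 (R 4.3.3; lmFit, eBayes, intensity trend), each site separately, or over all 16 arrays for comparisons of sites. P-values were adjusted by Benjamini-Hochberg over all probe sets at a threshold of 0.05. The script recovered changes of known size in simulated data. Of the probe sets, 10833 had 1 symbol in the platform annotation, 396 several and 1193 none; 10817 of the first were found in the RefSeq table of GRCm38.p6.

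Members and lists were chosen with earlier results of these data known. Every member was described. From each list of related genes, up to 4 genes with the largest first-site difference past the threshold were named. The largest in the minority direction was also named. Marker lists were given as counts, some also with ranges of summed level, and single genes were named from some of them. Alternatives were the pseudocount, scaling, filter, trend, sample set, replicate block and leaving out each array. No arrays held identical values. By the correlation of deviations from group means, replicate numbers did not pair the tissues: same-numbered arrays correlated at -0.187 to 0.039 at the first site and 0.011 to 0.08 at site 2.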

Additional observations from a re-analysis of the deposited data

Results flagged for a closer look

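The tissue difference of L1cam was not the same at the 2 sites by the test of that difference: -1.75 log2 units, first site minus site 2 (limma adjusted p = 0.0168), with retina below cortex in 5 of 5 first-site arrays and overlapping cortex at site 2. Cntn1 differed between sites in the opposite direction, by 1.23 log2 units (adjusted p = 0.000455), with every retina array below every cortex array at both sites. The L1cam call was lost without site 2 retina replicate 3 (-1.73, adjusted p = 0.0507), with centring on probe sets that passed at neither site (-1.81, adjusted p = 0.122) and without centring (-1.61, adjusted p = 1), and without centring the Cntn1 call was lost too (1.36, adjusted p = 0.743). Without site 2 cortex replicate 2 the values were -1.15 for L1cam and 1.17 for Cntn1, both past the threshold. No array stood apart from its group in the 18 groups of 5 first-site arrays that were tested for it.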

How the results depend on the processing

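The first-site count of 7 member probe sets lower in retina was the same under every alternative run, with 5576 to 5936 of all probe sets called when each array was left out. At site 2, leaving out cortex replicate 2 gave 8 called members, 7 lower and 1 higher. With any 1 array left out the number called was 6 to 8 of the members and 3062 to 5946 of all. Without centring it was 3 of the members and 781 of all, because the spread of array medians then enters the residuals; Ncam1 (100153_at -0.97, adjusted p = 0.441; 161750_f_at -1.20, 0.406) and Nrcam (-1.20, 0.386) lost their calls with differences as large as before. No called member changed sign. Of the probe sets at background, 161239_r_at of Chl1 lay on either side of 0. The other, 100152_at of Ncam1, stayed above 0, at 0.041 to 0.239 at the first site and 0.127 to 0.855 at site 2. Without centring the first-site calls over all probe sets were 2351 higher and 2062 lower, against 2725 and 3125. L1cam at site 2 passed with a pseudocount of 50 (adjusted p = 0.0429) and with all 16 arrays in 1 fit (0.0107). Over its alternatives its adjusted p ran from 3.05e-06 to 0.563. The dim probe set 100152_at of Ncam1 passed at site 2 after quantile normalization (0.44, adjusted p = 0.0222).

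For the tissue difference compared between sites, no centring gave 0 members and 34 of all probe sets, no intensity trend 255 of all, and centring on probe sets called at neither site 1 member (Cntn1, with L1cam at -1.81 and an adjusted p of 0.122) and 129 of all; leaving out 1 array gave 1 to 4 members and 212 to 671 of all. Chl1 passed it with a pseudocount of 50 (-0.69, adjusted p = 0.0275). Within retina, no centring gave 0 members and 290 of all, and quantile normalization 4 members and 4137 of all. Leaving out 1 array there gave 1 to 3 members and 3286 to 4179 of all. Within cortex, no centring gave 0 members and 79 of all, and leaving out 1 array 1 to 6 members and 1480 to 4976 of all. The share of calls higher at the first site was 35.0% within retina (61.0% without centring, 46.8% after quantile normalization) and 38.3% within cortex (50.8% after quantile normalization). No centring moved the median of the between-site comparison by 0.14 log2 units, the only shift above 0.1.

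With replicate number as a block, L1cam was called at site 2 (-1.03 ± 0.24, adjusted p = 0.00052), which made 7 members at each site, with 5771 of all probe sets at the first site and 4335 at site 2; the between-site comparison gave 2 members and 347 of all. Arrays correlated best with their own number in 2 of 5 first-site cases and 1 of 3 site 2 cases. These correlations did not pair the samples, although added control transcripts rose with replicate number in both tissues at the first site. All 4 pairs of probe sets stayed past the threshold at the first site under every array left out.

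Probe sets at background (161239_r_at and 100152_at, and Chl1 103088_at in retina) set the limit of what these arrays measure. The pools leave the spread between animals unmeasured.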

Other observations

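Control probe sets for the Thr and Trp transcripts, which are added to samples and have no mouse target, differed between the arrays on which the members were measured. In first-site replicates 1 to 5 their mean deposited intensity was 256.8, 649.8, 2107, 4071 and 7144 in retina, and 128.4, 281.7, 1201, 3104 and 7228 in cortex. The arrays thus stood in the same order in both tissues, that of their replicate numbers. At site 2 the means were 2.08 to 9.62.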
